A study of Mus musculus with 9 samples.

Results

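The circadian clock genes described here are the period genes Per1, Per2 and Per3, the cryptochrome genes Cry1 and Cry2, the REV-ERB genes Nr1d1 and Nr1d2, the activator gene Clock, the output gene Dbp and the repressor gene Ciart. They are named genes of the mammalian clock, and the rule that lists them uses no measured value. All 10 passed the filter on low counts, among 13812 genes tested and 56748 listed in the table. RNA of MLO-Y4 cells, a mouse line with osteocyte-like features, was sequenced in 9 libraries that form 3 groups of 3. In every group the cells shared a transwell with primary articular chondrocytes of C57BL/6J mouse pups, so that only soluble factors could pass between the cell types. The control group was co-cultured with chondrocytes that had not been stimulated, for a time that the labels do not give. The 24 h and 48 h groups were co-cultured for 24 h and 48 h with chondrocytes that had been pretreated with 10 ng/ml of interleukin-1β (IL-1β) for 6 h.

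The design asks how soluble signals from inflamed cartilage cells act on osteocytes, here on their clock genes. Because the co-culture time of the control group is not stated, the effect of stimulation and the effect of time in culture cannot be told apart in a comparison with control. The stimulated groups were collected a whole day apart, so the same clock phase would be sampled at both if the period were exactly a day. With a single collection per day, however, phase, amplitude and level cannot be told apart. Both comparisons with control used the same 3 control libraries. MLO-Y4 is 1 cell line, and nothing in the labels says that the numbered samples of a group came from separate cultures, so the p-values measure only the spread between these samples, which may be technical. The labels gave the cell line as MLO-Y4 in 6 libraries and under another name in 3, which were the 48 h libraries, while the protocols named MLO-Y4 throughout.

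Library totals were 12250628 to 15956441 counts in the control group, 14440454 to 15558585 at 24 h and 16458398 to 18515456 at 48 h. Levels are given as CPM, counts scaled to a common library size after TMM scaling (a trimmed mean of the gene ratios between libraries), and as mean ± SD of n = 3 libraries. Of the markers of mature osteocytes, Mepe and Fgf23 had 0 counts in all libraries, Sost had at most 1 and Dmp1 at most 6, whereas the early osteocyte markers Pdpn and Phex had at least 2640 and 151 counts per library. Of 13 chondrocyte markers, 8 did not pass the filter: Acan, Matn1, Col9a1, Cnmd and Ucma had 0 counts in all libraries, and Snorc, Col2a1 and Hapln1 had at most 1, 7 and 8. The other 5 were Prg4 (lubricin), with 19152 to 37523 counts per library, Sox9, a transcription factor of cartilage and of other cells, with 1379 to 2239, and Matn3, Col11a2 and Comp with 20 to 60, 15 to 39 and 1 to 21. The summed level of the chondrocyte list, most of it Prg4, was 1681 to 1716 CPM in control, 1565 to 1649 at 24 h and 2127 to 2216 at 48 h. The part of other cells in the clock gene levels was not tested. In such bulk RNA, fewer cells of a type and less RNA per cell cannot be told apart.

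The mammalian clock is a feedback loop of transcription. CLOCK, or its relative NPAS2, pairs with BMAL1 and activates genes that carry E-boxes, among them Per1 to Per3, Cry1, Cry2, Nr1d1, Nr1d2, Dbp and Ciart. PER and CRY proteins return to the nucleus and repress the CLOCK and BMAL1 pair, and CIART (also called CHRONO) is a further repressor of it. In a connected loop, the REV-ERB receptors encoded by Nr1d1 and Nr1d2 repress Bmal1, while the ROR receptors activate it at the same sites. DBP, TEF and HLF activate genes with D-boxes, and NFIL3 represses them. Bone and cartilage cells hold such clocks, and cultured cells can be brought into phase by serum, glucocorticoids and other signals. Per1 is also an immediate target of several such signals.

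Promoter sequences were read from RefSeq on build GRCm38.p6, as 250 bases before to 50 bases after each annotated start, an older build than the GRCm39 of the counts and of the gene positions given with the values. A promoter entry was found for 9 of the 10 genes, with 12 starts in all, but not for Per2. Matches were searched on both strands for the E-box CACGTG, the related E'-box CACGTT and the D-box TTANGTAA, where N is any base. Among 32851 promoters of the same length, 7.15% held the E-box, 4.68% the E'-box and 2.32% the D-box, and of 27025 genes 8.09%, 5.44% and 2.72% had at least 1 promoter with a match. The E-box was found for 3 of the 9 genes (Ciart, Cry1 and Per1), the E'-box for 3 (Cry1, Cry2 and Nr1d1) and the D-box for 1 (Per3). The 4 windows with an E-box or D-box match are shown, with the matched bases in capitals and 5′ to 3′ along the gene's strand. The windows of Cry2 and Nr1d1, which held only an E'-box, are not shown.

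Per1, chr11:69098699-69098998, plus strand, with an E-box that begins 166 bases before the start: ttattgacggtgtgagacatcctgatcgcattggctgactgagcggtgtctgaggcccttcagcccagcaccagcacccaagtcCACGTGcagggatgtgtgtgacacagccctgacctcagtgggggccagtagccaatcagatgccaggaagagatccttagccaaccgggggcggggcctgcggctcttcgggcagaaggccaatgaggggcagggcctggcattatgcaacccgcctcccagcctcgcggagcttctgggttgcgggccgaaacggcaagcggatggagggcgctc
Per3, chr4:151044616-151044915, minus strand, with D-boxes that begin 205 and 158 bases before the start: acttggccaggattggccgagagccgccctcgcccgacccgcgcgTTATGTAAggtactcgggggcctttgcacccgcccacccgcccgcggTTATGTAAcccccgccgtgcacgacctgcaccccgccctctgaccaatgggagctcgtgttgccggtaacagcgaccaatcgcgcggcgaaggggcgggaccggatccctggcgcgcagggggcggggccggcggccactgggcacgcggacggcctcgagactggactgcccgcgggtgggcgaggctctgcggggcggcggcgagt
Ciart, chr3:95882179-95882478, minus strand, with E-boxes that begin 116, 58 and 44 bases before the start: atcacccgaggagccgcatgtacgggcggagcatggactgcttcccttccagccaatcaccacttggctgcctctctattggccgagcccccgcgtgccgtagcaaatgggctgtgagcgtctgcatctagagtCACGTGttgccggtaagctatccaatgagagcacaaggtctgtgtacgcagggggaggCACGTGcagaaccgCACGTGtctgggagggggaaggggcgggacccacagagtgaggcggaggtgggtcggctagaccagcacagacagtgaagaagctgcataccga
Cry1, chr10:85185005-85185304, minus strand, with an E'-box (read on the other strand) that begins 79 bases and an E-box that begins 60 bases before the start: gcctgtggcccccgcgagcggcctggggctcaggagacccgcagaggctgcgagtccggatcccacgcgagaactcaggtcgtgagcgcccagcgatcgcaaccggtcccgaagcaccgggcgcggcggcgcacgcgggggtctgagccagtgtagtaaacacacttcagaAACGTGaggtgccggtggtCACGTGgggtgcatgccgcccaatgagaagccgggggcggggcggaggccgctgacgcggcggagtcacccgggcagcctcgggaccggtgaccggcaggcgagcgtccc

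Such a match is a run of letters and was not shown to be bound in these cells. The windows of Dbp, Clock and Nr1d2 held neither an E-box, an E'-box nor a D-box, which says only that these letters are absent from these windows. Calls at 48 h over control were made both for genes with a match (Per1, Per3 and Cry2) and for genes without (Dbp and Nr1d2), and 3 genes with a match (Cry1, Ciart and Nr1d1) had none.

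After 48 h, 5 of the 10 clock genes were higher than in the control libraries and none was called lower. These were Dbp, Per1, Cry2, Nr1d2 and Per3, with log2 fold differences (log2FC) of 0.32 to 0.85. At 24 h none of the 10 passed the test in either direction. Between 24 h and 48 h the same 5 genes were higher at 48 h, while Clock and Cry1 were lower. Tests were edgeR quasi-likelihood tests over all 13812 genes, with Benjamini-Hochberg adjusted p under 0.05 as a call. In 48 h over control, 22.0% of all genes tested were called higher and 24.4% lower, against 5 and 0 of the 10 clock genes. In 24 h over control these shares were 3.25% and 2.90%, and in 48 h over 24 h they were 23.7% and 25.4%, against 5 and 2 of the 10 clock genes. The median log2FC of the 10 genes was 0.27 at 48 h over control, 0.09 at 24 h over control and 0.24 at 48 h over 24 h, and that of all genes tested was -0.0022, -0.0042 and -0.0017.

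**Figure D1:**
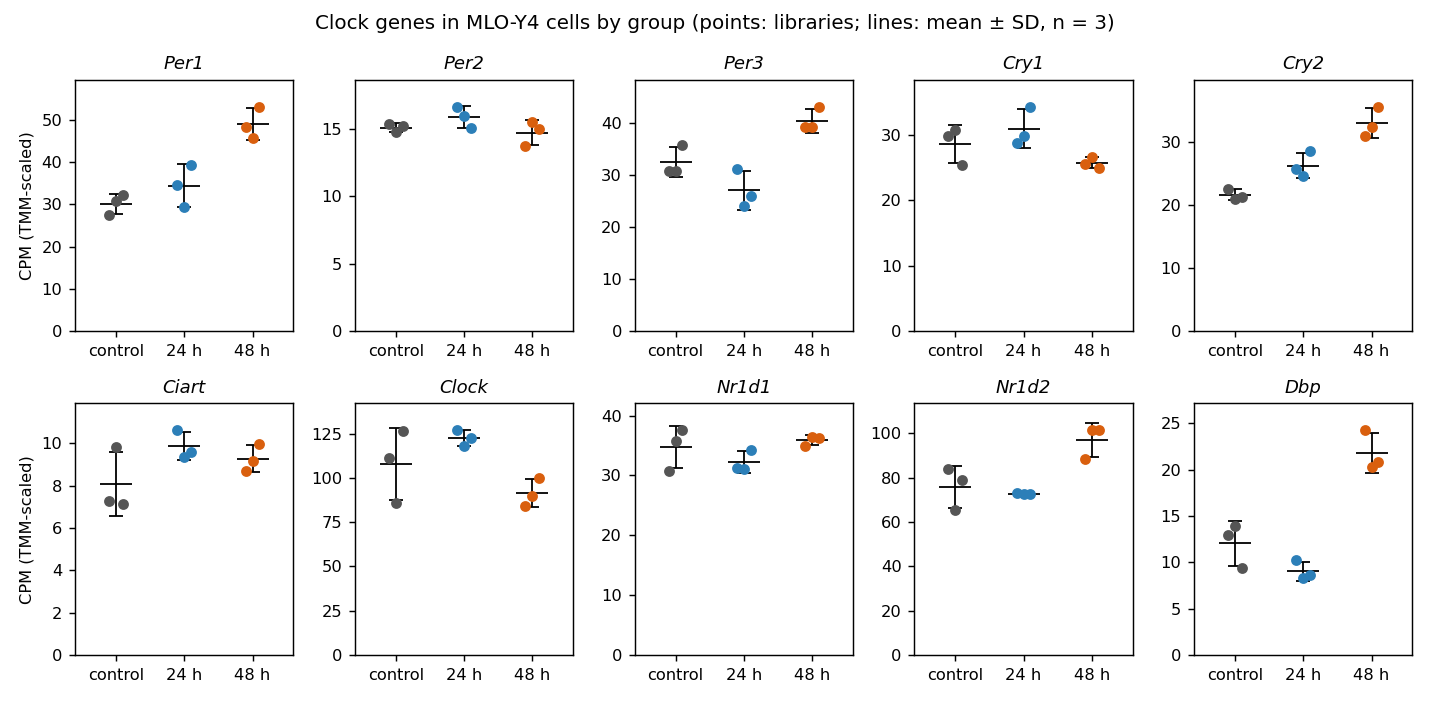
Level (CPM, TMM-scaled, axis from 0) of each of the 10 clock genes in the control, 24 h and 48 h groups; points are libraries and lines are the mean ± SD of n = 3. The 3 libraries at 48 h lay above all other libraries for Per1, Per3, Cry2, Nr1d2 and Dbp, whereas those of Per2, Cry1, Ciart, Clock and Nr1d1 overlapped the control libraries. The share of all genes whose libraries lay apart in this way was not counted. At 48 h over control, 52.5% of all genes tested had an unadjusted p under 0.05 by edgeR.

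The period genes encode the repressors that carry the delay of the loop, and they behaved differently from each other. Per1 (chr11:68986043-69000786 on GRCm39, plus strand) had 27.6, 30.7 and 32.2 CPM in the control libraries, 34.6, 29.3 and 39.3 CPM at 24 h and 48.2, 45.6 and 53.1 CPM at 48 h. All 3 libraries at 48 h were above every other library, while the 24 h libraries overlapped the control range. Its mean level was 30.2 ± 2.37 CPM in control, 34.4 ± 5.01 at 24 h and 48.9 ± 3.79 at 48 h. Per1 was 1.63-fold higher at 48 h than in control (log2FC 0.70, SE 0.09, adjusted p = 6.71e-06 by edgeR), and higher at 48 h than at 24 h by a log2FC of 0.51 (SE 0.09, adjusted p = 0.000149 by edgeR). At 24 h its log2FC over control was 0.19 (SE 0.10, adjusted p = 0.31 by edgeR). Across the 17 other fits made for each gene, Per1 was called higher at 48 h in all 17.

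Per2 (chr1:91343704-91387046, minus strand) had no called change in any comparison. It had 15.3, 14.7 and 15.2 CPM in control, 16.6, 15.9 and 15.0 CPM at 24 h and 13.7, 15.5 and 14.9 CPM at 48 h, so the 3 groups overlapped. The log2FC at 48 h over control was -0.04, with a 95% interval of -0.23 to 0.16 (adjusted p = 0.771 by edgeR), from counts of 180 to 280 per library. Without 48 h replicate 1 the sign of this difference turned, to 0.01.

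Per3 (chr4:151088109-151129122, minus strand) had 30.7, 30.8 and 35.8 CPM in control, 31.2, 24.1 and 25.9 CPM at 24 h and 39.1, 39.1 and 43.1 CPM at 48 h. The 48 h libraries were above all others, and 2 of the 3 libraries at 24 h were below the control range. Its log2FC was 0.32 at 48 h over control (SE 0.09, adjusted p = 0.00696 by edgeR) and 0.58 at 48 h over 24 h (SE 0.09, adjusted p = 3.46e-05 by edgeR). At 24 h over control the value was -0.26 (SE 0.09, adjusted p = 0.126 by edgeR), and without 24 h replicate 1 it was -0.37 (adjusted p = 0.0312 by edgeR), which passed the threshold. Per3 lies along its whole span of 41014 bases on the genome within the longer gene Camta1 on the same strand, which had 76 to 149 counts per library. Camta1 was not called in any of the 3 comparisons, with a log2FC of 0.17 at 48 h over control (adjusted p = 0.342 by edgeR).

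The cryptochromes encode the partners of PER and the stronger repressors of CLOCK and BMAL1. Cry2 (chr2:92233991-92264388, minus strand) had 22.6, 21.0 and 21.3 CPM in control, 25.7, 24.6 and 28.5 CPM at 24 h and 31.0, 32.4 and 35.6 CPM at 48 h. The 3 groups did not overlap, with the control lowest and 48 h highest. Cry2 was 1.52-fold higher at 48 h than in control (log2FC 0.61, SE 0.08, adjusted p = 7.26e-06 by edgeR) and higher at 48 h than at 24 h by a log2FC of 0.33 (SE 0.08, adjusted p = 0.00202 by edgeR). At 24 h the log2FC over control was 0.28 (SE 0.08, adjusted p = 0.0636 by edgeR), which missed the threshold. Without the filter on low counts this value was 0.29 and passed (adjusted p = 0.0396 by edgeR).

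Cry1 (chr10:84967564-85020928, minus strand) had 29.8, 30.7 and 25.4 CPM in control, 28.8, 29.8 and 34.3 CPM at 24 h and 25.6, 26.7 and 24.9 CPM at 48 h. The control group overlapped both others, and the 48 h libraries were all below the 24 h libraries. Cry1 was lower at 48 h than at 24 h, with a log2FC of -0.27 (SE 0.09, adjusted p = 0.0165 by edgeR). That call was lost without 24 h replicate 3 (-0.18, adjusted p = 0.128 by edgeR) and without 48 h replicate 3 (-0.24, adjusted p = 0.0645 by edgeR). Against control the log2FC at 48 h was -0.15 (adjusted p = 0.163 by edgeR), and without control replicate 3 it was -0.22 (adjusted p = 0.0464 by edgeR). Within the cryptochrome pair, therefore, Cry2 was called higher and Cry1 lower in 48 h over 24 h.

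Ciart (chr3:95785815-95789563, minus strand) had 95 to 187 counts per library. It had 7.28, 9.81 and 7.15 CPM in control, 10.6, 9.37 and 9.60 CPM at 24 h and 8.68, 9.17 and 9.98 CPM at 48 h, with control overlapping the others through control replicate 2 alone and 24 h overlapping 48 h. The log2FC was 0.21 at 48 h over control, with a 95% interval of -0.07 to 0.49 (adjusted p = 0.219 by edgeR), and without control replicate 2 it was 0.37 (adjusted p = 0.0325 by edgeR). At 24 h over control it was 0.30 (adjusted p = 0.251 by edgeR). All 3749 bases of Ciart are overlapped by the long noncoding RNA C920021L13Rik on the other strand, which was called higher at 48 h over control (log2FC 1.11, adjusted p = 0.000557 by edgeR) at mean levels of 1.76, 2.41 and 3.79 CPM in the 3 groups. Whether counting used the strand is not stated, so reads of the pair may not have been kept apart.

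Clock (chr5:76357715-76452639, minus strand), the activator, has a long gene model, of 13727 bases by the authors' gene length. That length is shorter than the span on the genome and is the one used below for long genes. It had 111, 86.1 and 126 CPM in control, 127, 118 and 123 CPM at 24 h and 84.3, 90.0 and 99.9 CPM at 48 h. The control libraries spread over nearly the whole range, while those at 48 h were all below those at 24 h. Clock was lower at 48 h than at 24 h by a log2FC of -0.42 (SE 0.10, adjusted p = 0.00133 by edgeR). Against control the 48 h value was -0.24 (SE 0.10, adjusted p = 0.0501 by edgeR), just short of the threshold, and the 24 h value was 0.18 (adjusted p = 0.333 by edgeR).

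The 48 h comparison of Clock with control turned on single control libraries. Without control replicate 2 the log2FC was -0.36 (adjusted p = 0.000254 by edgeR), without control replicate 3 it was -0.10 (adjusted p = 0.344 by edgeR), and without 48 h replicate 3 it was -0.31 (adjusted p = 0.0263 by edgeR). DESeq2 gave -0.23 (adjusted p = 0.0493). Without control replicate 3 the 24 h value against control was 0.31 (adjusted p = 0.0188 by edgeR). Control replicate 2 was also low for other long genes. The median deviation of 1197 genes of at least 10 kb by the authors' gene length from their mean over the 9 libraries was -0.18 on the log2 scale in that library, and between -0.05 and 0.09 in the other 8. Clock itself deviated by -0.30 there, by 0.07 and 0.25 in the other control libraries, by 0.15 to 0.26 at 24 h and by -0.33 to -0.08 at 48 h. When a trend with gene length was removed from each library, an alternative chosen after seeing the data, the 48 h value of Clock against control was -0.36 (adjusted p = 9.01e-05 by edgeR). In that fit the median of all genes for this comparison was also lower, at -0.05 against -0.0022 in the main fit. It called 2676 genes higher and 4128 lower, against 3039 and 3369 in the main fit.

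**Figure D2:**
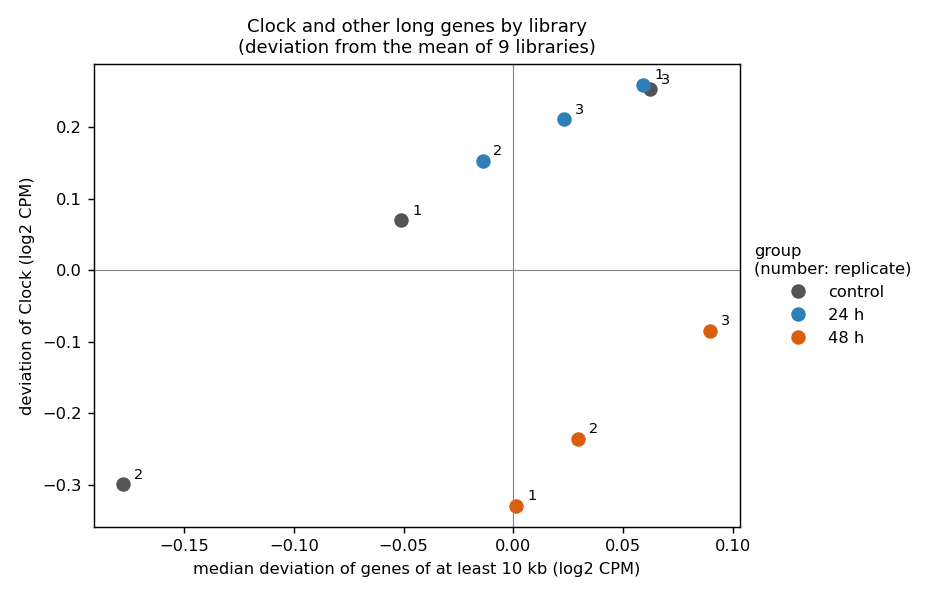
Deviation of Clock (vertical axis, log2 CPM) against the median deviation of 1197 genes of at least 10 kb by the authors' gene length (horizontal axis, log2 CPM) from their means over the 9 libraries. Each point is a library, numbered by replicate. Control replicate 2 sat at -0.18 and -0.30, apart from the other control libraries, and the 3 libraries at 48 h lay below 0 for Clock with long gene medians of 0.00 to 0.09.

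The REV-ERB genes encode heme-binding nuclear receptors that repress Bmal1. Nr1d2 (chr14:4230569-4265642, plus strand) had 83.7, 65.2 and 78.7 CPM in control, 73.0, 72.8 and 72.4 CPM at 24 h and 88.2, 101.3 and 101.3 CPM at 48 h. All 48 h libraries were above all others, and the 24 h libraries lay within the control range. Its log2FC was 0.35 at 48 h over control (SE 0.08, adjusted p = 0.00112 by edgeR) and 0.41 at 48 h over 24 h (SE 0.08, adjusted p = 0.000206 by edgeR). At 24 h it was -0.07 (adjusted p = 0.727 by edgeR), and without control replicate 1 its sign turned, to 0.02.

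Nr1d1 (chr11:98658758-98666159, minus strand) had 30.8, 35.8 and 37.5 CPM in control, 31.3, 31.1 and 34.3 CPM at 24 h and 34.9, 36.4 and 36.2 CPM at 48 h. The 48 h libraries lay within the control range and above the 24 h libraries. The log2FC at 48 h over control was 0.05, with a 95% interval of -0.11 to 0.21 (adjusted p = 0.621 by edgeR), and at 48 h over 24 h it was 0.16 (adjusted p = 0.107 by edgeR). Without control replicate 1 the 48 h value against control was -0.02. Nr1d1 shares 1075 bases with Thra, the thyroid hormone receptor gene on the other strand, whose mean level was 99.4, 88.7 and 141.5 CPM in the 3 groups. Thra was higher at 48 h over control (log2FC 0.51, adjusted p = 3.12e-07 by edgeR).

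Dbp (chr7:45354512-45359627, plus strand) encodes an activator of D-box genes and is a widely used readout of the CLOCK and BMAL1 pair. It had 12.9, 13.9 and 9.33 CPM in control, 10.2, 8.27 and 8.61 CPM at 24 h and 24.2, 20.3 and 20.8 CPM at 48 h. All 3 libraries at 48 h were above all others, and 24 h overlapped control through control replicate 3 alone. Mean levels were 12.1 ± 2.41, 9.03 ± 1.04 and 21.8 ± 2.13 CPM. Dbp had the largest fold of the 10 genes, at 1.81-fold over control (log2FC 0.85, SE 0.13, adjusted p = 2.26e-05 by edgeR) and 2.41-fold over 24 h (log2FC 1.27, SE 0.13, adjusted p = 2.39e-07 by edgeR). At 24 h over control the log2FC was -0.42 (SE 0.14, adjusted p = 0.0979 by edgeR), and without control replicate 3 it was -0.56 (adjusted p = 0.00615 by edgeR). Sphk2, which shares 737 bases with Dbp on the other strand, had a log2FC of -0.04 at 48 h over control (adjusted p = 0.693 by edgeR).

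For the 24 h comparison as a whole, edgeR called 0 of the 10 genes, and DESeq2 called 0 as well. At an unadjusted p under 0.05 edgeR gave 2 genes higher and 2 lower, beside 18.7% of all genes tested in either direction. The calls that a single left-out library produced at 24 h were those of Per3, Clock and Dbp given above. In the 48 h comparison, Per1, Per3, Cry2, Nr1d2 and Dbp were called higher in all 17 other fits against control and in all 17 against 24 h.

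**Figure D3:**
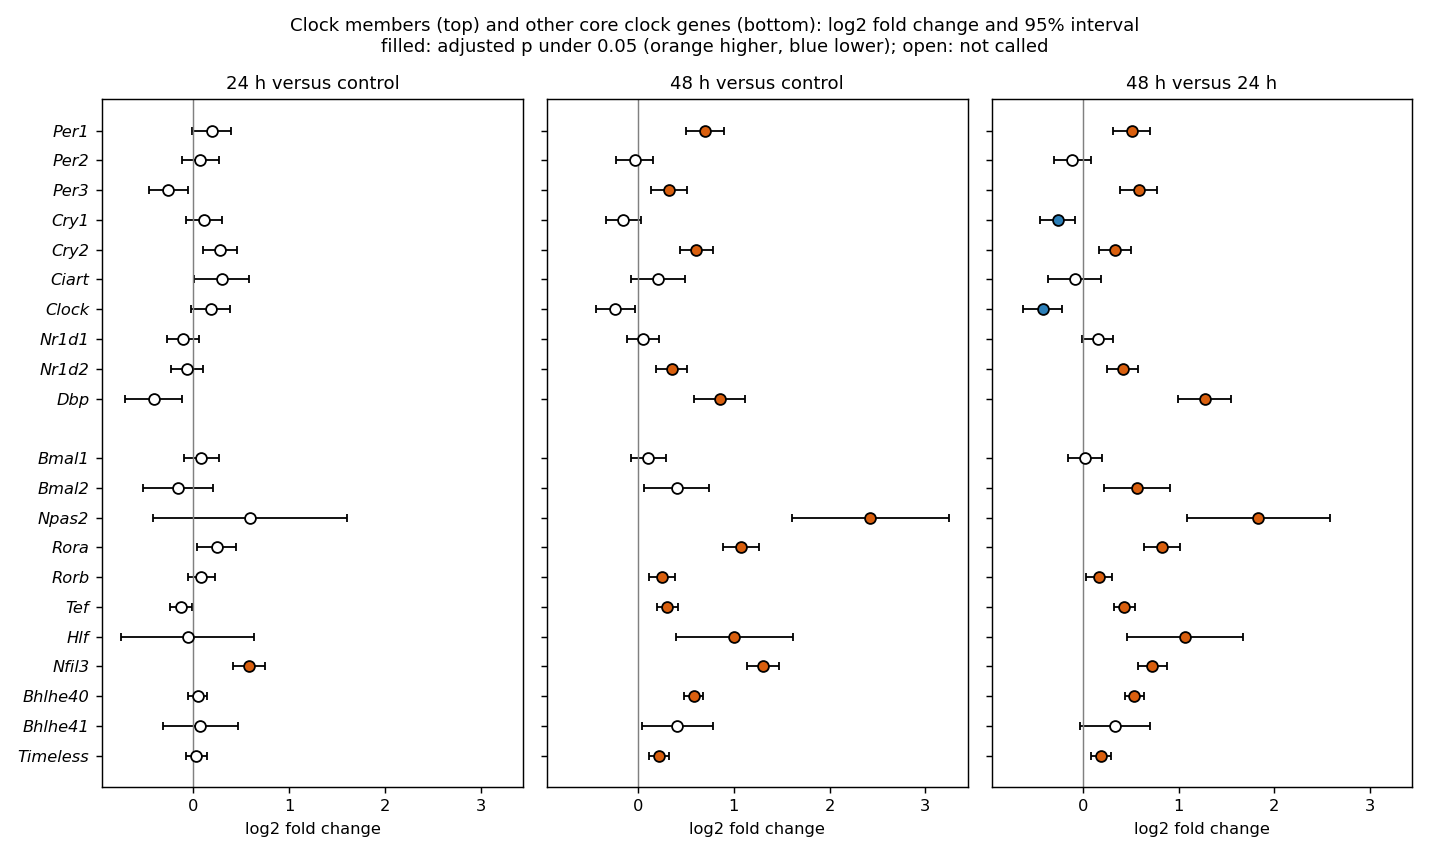
Log2 fold change (log2FC) (horizontal axis) with its 95% interval for the 10 clock genes and 11 other core clock genes in 24 h over control, 48 h over control and 48 h over 24 h; filled points passed an adjusted p of 0.05 and open points did not. At 24 h only Nfil3 was filled, and at 48 h over control 5 of the 10 and 8 of the 11 were filled, all to the right of 0.

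Other core clock genes, listed by their place in the loop, were read beside the 10. Of 12 listed, 11 were tested. At 48 h over control 8 of the 11 were higher and 0 lower, beside 22.0% and 24.4% of all genes tested. The median log2FC of the 11 was 0.41. At 24 h over control 1 was higher and 0 lower, beside 3.25% and 2.90% of all genes. At 48 h over 24 h 9 were higher and 0 lower, beside 23.7% and 25.4% of all genes. Of those 9, Rorb (log2FC 0.17, adjusted p = 0.0351 by edgeR), was called in only 9 of the 17 other fits and was lost with DESeq2 (adjusted p = 0.0792), without the filter (0.147), with the length trend removed (0.172) and without 24 h replicate 1 (0.0614), 24 h replicate 3 (0.123) or 48 h replicate 1, 2 or 3 (0.0712 to 0.0922). Bmal1, the partner of CLOCK, was at 28.5 ± 3.02 CPM in control, 30.2 ± 0.728 at 24 h and 30.6 ± 2.88 at 48 h, with a log2FC of 0.11 at 48 h over control (adjusted p = 0.342 by edgeR). Npas2, the relative of CLOCK, had only 4 to 13 counts per control library and 43 to 58 at 48 h, a log2FC of 2.42 (SE 0.39, adjusted p = 5.3e-05 by edgeR), or 3.16 without control replicate 3. Bmal2 had a log2FC of 0.40 at 48 h over control (adjusted p = 0.05 by edgeR, above the threshold by less than the rounding) and 0.56 at 48 h over 24 h (adjusted p = 0.00784 by edgeR). Against control it was called higher at 48 h in 8 of the 17 other fits (adjusted p 0.0264 to 0.131 by edgeR or DESeq2).

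The ROR receptors activate Bmal1 at the sites that REV-ERB occupies. Rora was at 20.0 ± 1.71 CPM in control, 23.8 ± 2.89 at 24 h and 42.2 ± 2.76 at 48 h, and was higher at 48 h over control by a log2FC of 1.07 (SE 0.09, adjusted p = 2.4e-08 by edgeR). Rorb, which is usually a gene of the nervous system and of immature bone cells, was higher by 0.25 (adjusted p = 0.00333 by edgeR), a call that was lost when the trend with gene length was removed (0.14, adjusted p = 0.0968). The median of all genes in that fit was -0.05. Nr1d2 and Rora thus rose together at 48 h while the level of Bmal1 did not pass the test.

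The D-box regulators rose at 48 h on both sides. Of the activators beside Dbp, Tef was at 107.7 ± 3.65 CPM in control, 98.5 ± 2.57 at 24 h and 132.8 ± 4.03 at 48 h (log2FC 0.30 at 48 h over control, adjusted p = 0.000117, and 0.43 at 48 h over 24 h, adjusted p = 2.01e-06, by edgeR). Hlf, with 11 to 46 counts per library, was higher by a log2FC of 1.00 (adjusted p = 0.00839 by edgeR). The repressor Nfil3 was at 27.2 ± 2.35, 40.7 ± 3.38 and 67.3 ± 3.21 CPM. It was higher at 24 h by a log2FC of 0.58 (SE 0.08, adjusted p = 0.000113 by edgeR) and at 48 h by 1.30 (SE 0.08, adjusted p = 2.01e-10 by edgeR), and was the 1 core clock gene called at 24 h.

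Bhlhe40 (DEC1), a repressor that competes at E-boxes and is also induced by hypoxia, was at 173 ± 4.03 CPM in control, 178 ± 4.09 at 24 h and 259 ± 3.21 at 48 h, a log2FC of 0.58 at 48 h over control (adjusted p = 1.05e-08 by edgeR). Its relative Bhlhe41 had 0.41 (adjusted p = 0.0669 by edgeR), and without control replicate 2 0.53 (adjusted p = 0.0406 by edgeR). Timeless, which mainly serves DNA replication in mammals, was higher by 0.22 (adjusted p = 0.00162 by edgeR).

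**Figure D4:**
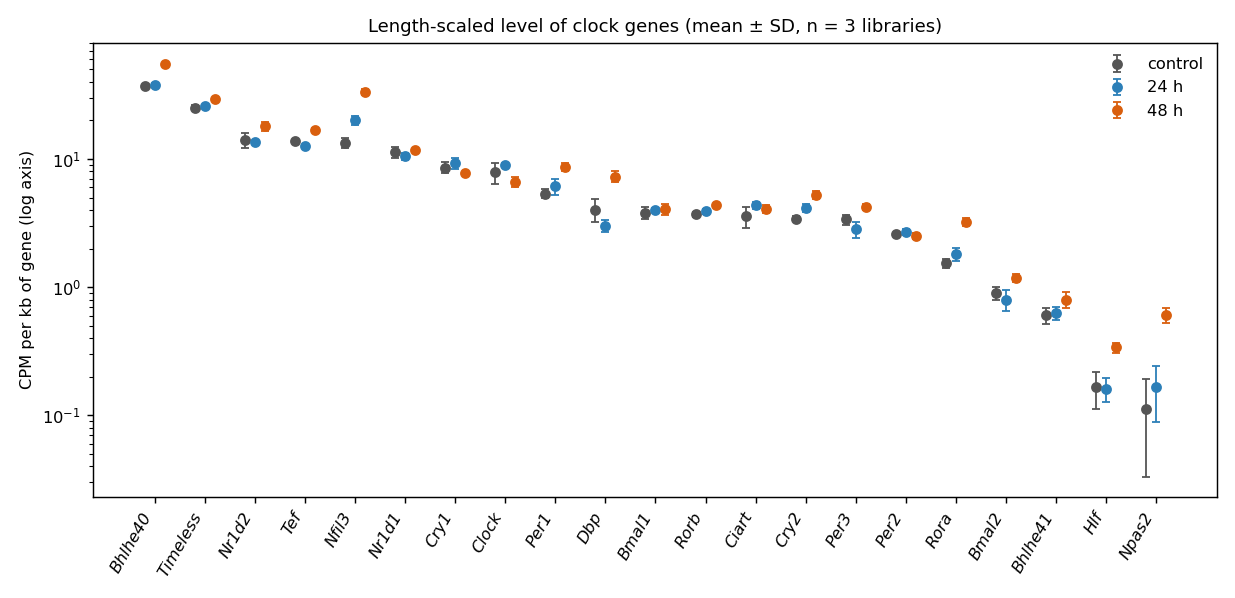
Level per gene length (CPM per kb, log axis) of the 10 clock genes and 11 other core clock genes, as mean ± SD of n = 3 libraries per group. Among the 10, Nr1d2 was highest (14.0 in control, 17.9 at 48 h) and Per2 lowest (2.57 and 2.51).

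Levels can be compared between genes only per length. In the control group, in CPM per kb, the order of the 10 was Nr1d2 (14.0), Nr1d1 (11.3), Cry1 (8.57), Clock (7.86), Per1 (5.36), Dbp (4.03), Ciart (3.57), Cry2 (3.42), Per3 (3.38) and Per2 (2.57). Neighbours from Cry1 to Clock and from Dbp to Per3 differed by less than the larger of their SDs. At 48 h the order was Nr1d2 (17.9), Nr1d1 (11.7), Per1 (8.69), Cry1 (7.70), Dbp (7.28), Clock (6.66), Cry2 (5.22), Per3 (4.21), Ciart (4.10) and Per2 (2.51), with neighbours from Cry1 to Clock and from Per3 to Ciart again within the larger SD. Per1, Dbp, Cry2 and Per3 moved up the order, and Clock, Cry1 and Ciart moved down. These are moves in rank only, since the level of Ciart was 3.57 in control and 4.10 at 48 h. Dbp, Ciart, Cry2 and Per3 started from control ranks within the larger SD of their neighbours, so their moves are not resolved. The summed CPM of the 10 was 338.9 to 388.9 in control, 363.1 to 390.6 at 24 h and 397.9 to 439.9 at 48 h.

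**Figure D5:**
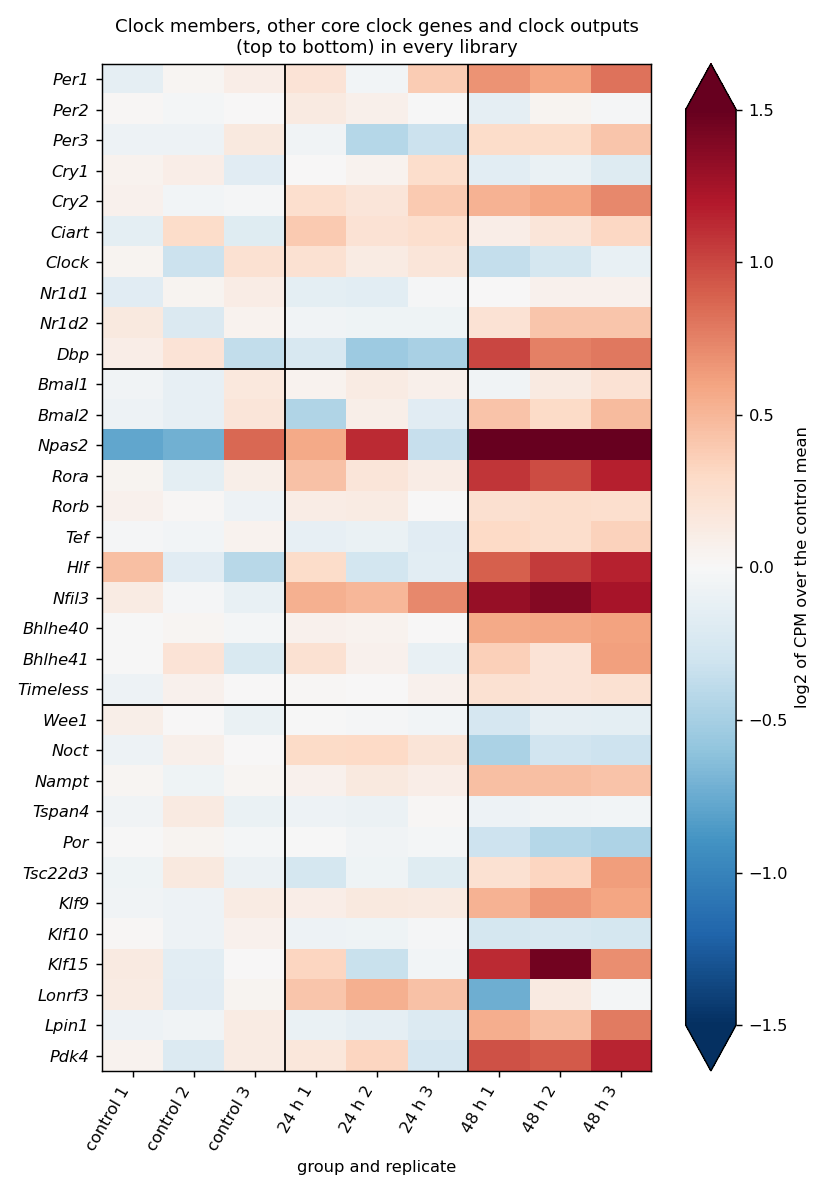
Log2 of CPM over the control mean (colour scale, with values beyond it at the end colours) for the 10 clock genes, the other core clock genes and 12 clock outputs, in each of the 9 libraries. Among the 10, all 48 h columns are above the control mean for Per1, Per3, Cry2, Nr1d2 and Dbp. They are also above it for the uncalled Ciart (0.10 to 0.30) and Nr1d1 (0.01 to 0.07). The control columns of Npas2 and Hlf vary at their low counts.

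Clock modifiers, which are kinases, ubiquitin ligase parts, deubiquitinases and coregulators of clock proteins, were called in both directions at 48 h over control. Of 24 tested, 8 were higher and 7 lower at 48 h over control, beside 22.0% and 24.4% of all genes, with a median log2FC of 0.01. At 24 h over control 0 were called, beside 3.25% and 2.90% of all genes. At an unadjusted p under 0.05 by edgeR 6 were higher and 1 lower, beside 18.7% of all genes in either direction. In 48 h over 24 h, 1 was higher and 7 were lower, beside 23.7% and 25.4% of all genes. The largest change at 48 h over control was that of Fbxl21, an F-box gene of the CRY-degrading family. It had 12 to 47 counts per library in the groups compared (log2FC 0.96, adjusted p = 0.0168 by edgeR). Of 12 outputs, 6 were higher and 4 lower at 48 h over control, beside 22.0% and 24.4% of all genes, with a median of 0.18. The largest rises were those of Klf15, a metabolic transcription factor (log2FC 1.11, adjusted p = 0.000578 by edgeR), Pdk4, which restrains pyruvate oxidation (1.01, adjusted p = 8.34e-05), and Lpin1, a phosphatidate phosphatase (0.60, adjusted p = 3.08e-05). In 48 h over 24 h again 6 outputs were higher and 4 lower, beside 23.7% and 25.4% of all genes. Lonrf3 was lower there by -0.63 on the log2 scale (adjusted p = 0.0036 by edgeR).

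Genes of other programmes also changed, some of them already at 24 h, where 0 of the 10 clock genes were called. Their part in the clock gene changes was not tested. The counts below stand beside all genes tested, of which 22.0% were called higher and 24.4% lower at 48 h over control. At 24 h over control these shares were 3.25% and 2.90%. Hypoxia genes were called higher for 10 of 12 at 24 h and 10 of 12 at 48 h over control, with summed levels of 1054 to 1080 CPM in control, 1425 to 1452 at 24 h and 1785 to 1899 at 48 h. The largest rises were those of Car9, a carbonic anhydrase with 8 to 12 counts per control library (log2FC 3.89, adjusted p = 1.73e-10 by edgeR), and Ndrg1 (1.73, adjusted p = 2.16e-13). Proliferation genes were lower for 12 of 12 at 48 h over control (10 to 11 with 1 library left out), with summed levels of 3930 to 4191, 4206 to 4229 and 2937 to 2961 CPM, and the mitotic genes Plk1 (-0.95, adjusted p = 1.77e-09) and Ccnb1 (-0.82, adjusted p = 2.21e-10) fell most. Of the glucocorticoid targets tested, 7 of 9 were higher and 1 lower at 48 h over control, led by Cebpd (2.25, adjusted p = 1.73e-10) and Pdk4. The lists share genes and are not separate counts. Tsc22d3, Klf9 and Pdk4 are also among the clock outputs, and Dusp1 is also among the immediate early genes. Of 12 immediate early genes, which answer to cAMP and serum, 7 were higher and 2 lower, led by Nr4a3 (1.73, adjusted p = 1.26e-05) and the kinase gene Sik1 (1.17, adjusted p = 2.74e-08). At 24 h, 3 glucocorticoid targets and 4 immediate early genes were higher and 0 lower.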

How the data were processed

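Per the labels and the study's methods, directional paired-end libraries of MLO-Y4 RNA were sequenced. The authors deposited raw counts per gene, made with HISAT2 (2.0.5) and featureCounts (2.06 per the processing notes) on GRCm39. The sources differ on the featureCounts version, also name RSEM, and do not state the strand setting or how reads with several matches were counted. The authors' gene lengths were used for CPM per kb. Groups came from the sample labels.

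Genes with enough counts by filterByExpr (minimum count 10, 13812 genes) were scaled by TMM and tested in 1 model of the 3 groups with edgeR 4.0.16 (quasi-likelihood, 6 residual degrees of freedom) in R 4.3.3 with limma 3.58.1, with Benjamini-Hochberg adjustment over all genes tested and a threshold of 0.05. Alternatives were other size factors, other filters, DESeq2 1.42.0, pairs of groups, a replicate block, stricter thresholds, each library left out and, added after seeing the data, removal of a gene length trend. The code was tested on simulated data. Replicates of a group differed by 2.31 to 8.40 times the counting noise (chi-square per degree of freedom), so none was counted as a duplicate.

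The genes were listed by name, by a rule without measured values, but they and the other lists were chosen with earlier results of these data known. Named were all 10 genes, every other core clock gene tested, the 4 largest called changes among modifiers and outputs at 48 h (against control and against 24 h), up to 2 of each context list, genes overlapping the 10, and the 3 genes most like Per1, Dbp and Clock, of which some are not reported here. Lists of osteocyte and osteoblast markers (3 of 6 tested higher and 3 lower at 48 h versus control), chondrocyte markers (3 of 5 higher, 1 lower) and macrophage markers (0 of 2 called) were also read. Of all genes tested, 22.0% were higher and 24.4% lower in that comparison.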

Additional observations from a re-analysis of the deposited data

Results flagged for a closer look

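For 7 of the 10 clock genes the change over control at 48 h differed from the change at 24 h, by the edgeR test of the difference itself. As both changes use the same control libraries, this test is that of 48 h versus 24 h given above. The same test called 23.7% of all genes tested higher and 25.4% lower. The change at 48 h exceeded that at 24 h on the log2 scale by 1.27 for Dbp, 0.58 for Per3, 0.51 for Per1, 0.41 for Nr1d2 and 0.33 for Cry2. It was lower, by -0.42, for Clock and by -0.27 for Cry1, and the Cry1 difference was lost without 24 h replicate 3 (-0.18) and without 48 h replicate 3 (-0.24).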

How the results depend on the processing

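Without the low count filter, with DESeq2, with the replicate block or with the gene length trend removed, 1 of the 10 clock genes (Clock) was called lower for 48 h against control. In the order of these fits, 3351 of 26232, 2970 of 14024, 3380 of 13812 and 4128 of 13812 of all genes were lower. For 24 h against control 2 (Cry2 and Clock) were called higher and 1 (Dbp) lower without the filter, and 1 (Per3) lower with the trend removed. Of all genes, 759 were higher and 436 lower of 26232 without the filter, and 477 of 13812 were lower with the trend removed. Leaving out 1 library gave 5 to 6 higher and 0 to 1 lower for 48 h against control, 0 to 1 in each direction for 24 h against control, and 1 to 2 lower for 48 h against 24 h. Of all 14025 to 14173 genes tested in these fits, 2616 to 3200 were higher and 2839 to 3239 lower for 48 h against control. For 24 h against control 295 to 873 of all genes were higher and 222 to 602 lower. For 48 h against 24 h 2892 to 3596 were higher and 2991 to 3640 lower. For 48 h against 24 h Nr1d1 was called higher with library size alone in place of TMM scaling (0.19, adjusted p = 0.0453 by edgeR). It was also called with only the 2 groups fitted (0.16, adjusted p = 0.0498 by edgeR). Of all genes, 3688 of 13812 and 3617 of 13598 were higher in these 2 fits. At an adjusted p under 0.01, 1 was lower for 48 h against 24 h, beside 2711 of all 13812 genes. With a log2 fold change of at least 1 required, 0 of the 10 were called for 48 h against control, and 1 higher and 0 lower for 48 h against 24 h. Of all 13812 genes, 525 were higher and 180 lower in the first comparison and 592 and 214 in the second. The blocked fit changed no other call among the 10. Replicate numbers did not pair the samples, since deviations correlated by -0.05 to 0.08 over 9 same-numbered pairs and by -0.10 to 0.09 over 18 others, and not every sample correlated best with its own number, so the samples share only a number.

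In the other lists, that fold limit left 4 other core clock genes, 0 modifiers in each direction, 2 outputs, 2 glucocorticoid targets, 4 immediate early genes and 0 proliferation genes for 48 h against control. It left 0 core clock genes, 1 glucocorticoid target, 1 immediate early gene and 1 hypoxia gene for 24 h against control. Of all 13812 genes tested, this limit left 525 higher and 180 lower for 48 h and 46 and 17 for 24 h against control. For 48 h against 24 h these counts over all genes were 592 and 214. Of the lists, for 48 h against 24 h the fold limit left 2 core clock genes, 0 modifiers, 1 output, 0 glucocorticoid targets, 0 immediate early genes, 3 hypoxia genes and 1 proliferation gene, with 0 in the lesser direction of each list. The limit of 0.01 gave 2 modifiers higher and 4 lower for 48 h against control, 2 immediate early genes for 24 h against control, and 3 immediate early genes higher and 0 hypoxia genes lower for 48 h against 24 h. Of all 13812 genes, 2196 were higher and 2564 lower in the first of these comparisons. In the second 259 and 205 were, and in the third 2445 and 2711. With the length trend removed, 3 modifiers were higher for 48 h against control and 3 hypoxia genes lower for 48 h against 24 h, and the latter count was also 3 when only 2 groups were fitted. Of all genes, 2676 of 13812 were higher in the first case and 4314 of 13812 lower in the second. With 2 groups fitted, 3811 of 13598 were lower. For 24 h against control, modifiers called higher numbered 5 without the filter, 1 with DESeq2, 5 with the block and 1 with the trend removed, outputs 1 without the filter and 1 with 2 groups, and proliferation genes 1 without the filter, with DESeq2, with the block and with the trend removed. Of all genes, 759 of 26232 were higher without the filter, 496 of 12499 with DESeq2 and 538 of 13812 with the block. With the trend removed 587 of 13812 were higher, and with 2 groups 336 of 13280. Leaving out 1 library gave, for modifiers, 4 to 9 higher for 48 h and 0 to 6 higher for 24 h against control, for outputs at 24 h 0 to 1, for proliferation genes at 24 h 0 to 2 higher and 0 to 1 lower, for immediate early genes at 24 h 2 to 5, and for hypoxia genes lower for 48 h against 24 h 0 to 2. The ranges over all genes with 1 library left out are given above. The cause was not tested.

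Differences that changed sign were all uncalled. Over the left-out libraries the log2 fold change ranged from -0.0742 to 0.00961 for Per2 and -0.0217 to 0.127 for Nr1d1 (48 h against control). It ranged from -0.157 to 0.0157 for Nr1d2, -0.241 to 0.258 for Hlf, -0.0192 to 0.179 for Bhlhe41 and -0.00314 to 0.0691 for Timeless (24 h against control), and from -0.0382 to 0.0928 for Bmal1 (48 h against 24 h), which was -0.0317 with the length trend removed. Low counts limit genes such as Npas2, Hlf, Fbxl21 and Car9.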

Other observations

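The genes whose log2 CPM followed a clock gene most closely over the 9 libraries are given as a description, among 10079 protein-coding genes with a mean of at least 5 CPM. These points share their libraries and groups. For Per1 they were Proser1 (Pearson r = 0.988), Adamts4, an aggrecan-cleaving protease (0.983), and Shc1, an adaptor of growth factor receptors (0.983). For Dbp they were Sirpa, a receptor of the CD47 signal (0.982), Mxra8 (0.980) and Pnpla2, the triglyceride lipase ATGL (0.980). For Clock they included Rbl1, the pocket protein p107 (0.984), and the nuclear import gene Tnpo1 (0.983). Among the 10 clock genes the lowest correlations were those of Per3 with Cry1 (-0.855) and of Clock with Dbp (-0.849).

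The AGGTCA half-site, the core of REV-ERB and ROR sites, was found in the promoter windows of Clock, Nr1d2 and Per1 among the 9 clock genes with an entry, in 16.3% of all 32851 promoters, and for 18.1% of 27025 genes.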
